A study of Mus musculus with 6 samples.

Results

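The death ligands, BAFF, the TNF receptors and the necroptosis machinery were examined as a group of 10 genes. They were chosen by name, with earlier results of these data known: Tnfsf10, Tnfrsf10b, Fas, Tnfsf13b, Tnfsf13, Tnfrsf1a, Tnfrsf1b, Ripk1, Ripk3 and Mlkl. Of these, 8 had probe sets of their own on the array, 14 in all out of 45037. No probe set listed here belonged to Ripk1, and 1 probe set that lists Tnfsf13 also lists other genes, so these 2 genes received no value. Expression was measured on 6 Affymetrix arrays of macrophages grown from mouse bone marrow with GM-CSF, 3 from E-FABP knockout mice (arrays KO1, KO2 and KO3, by the replicate number in the labels) and 3 from wild-type mice (WT1, WT2 and WT3), all called C57BL/6 in the labels and aged 6 to 8 weeks at collection. E-FABP is a fatty-acid-binding protein of the cytosol, encoded by Fabp5. After 7 days with GM-CSF at 20 ng/ml, each culture was kept for 18 h in 12-well plates with E0771 mouse breast tumour cells in an insert above it. The labels do not say which part of Fabp5 is deleted. No culture without tumour cells was analysed here, so every value describes tumour-exposed cells and the comparison is that of the genotypes. RNA came from the whole culture, in which fewer cells of a type and less RNA per cell cannot be told apart. The labels call the arrays of a genotype biological replicates and do not say whether each came from its own mouse, so p-values measure the spread between these samples, which may be technical.

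Ligands of the TNF superfamily bind receptors on neighbouring cells. TRAIL, encoded by Tnfsf10, and Fas ligand engage receptors that carry a death domain and recruit FADD and caspase-8, which starts apoptosis. TNF acts through TNFR1 and TNFR2, and its usual outcome is NF-kB signalling from a complex around the kinase RIPK1. Where caspase-8 is blocked, RIPK1 or the sensor ZBP1 can engage RIPK3, which phosphorylates MLKL, and MLKL then breaches the plasma membrane; this lytic death is necroptosis. BAFF and APRIL, encoded by Tnfsf13b and Tnfsf13, are myeloid cell products that support B cells and plasma cells. Tnfsf10, Tnfsf13b, Fas and Mlkl are known as genes that interferons can induce in myeloid cells.

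The sequence upstream of the start site was read for the members from the RefSeq promoter table (build GRCm38.p6), which held entries for 9 of the 10 genes. The 250 bases before each listed start were searched on both strands for an interferon-stimulated response element (GAAANNGAAA), for the shorter core bound by interferon regulatory factors (AANNGAAA, which lies within every GAAANNGAAA) and for a gamma-activated sequence (TTCNNNGAA, whose letters read alike on both strands). Of 32851 windows of this length in the table, 2.98% held the first, 21.3% the second and 7.02% the third. The 200 bases next to the start are shown for Tnfsf10, the member with the largest change, for Tnfrsf1b, a member whose window held the full response element, and for Ripk3, a member without any of these matches. Matches are in capitals.
Tnfsf10, chr3:27316877-27317076, + strand: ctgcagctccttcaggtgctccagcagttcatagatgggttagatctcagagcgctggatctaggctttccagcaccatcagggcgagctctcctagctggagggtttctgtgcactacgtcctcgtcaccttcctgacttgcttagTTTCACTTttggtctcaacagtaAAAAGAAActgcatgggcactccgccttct
Tnfrsf1b, chr4:145246871-145247070, - strand: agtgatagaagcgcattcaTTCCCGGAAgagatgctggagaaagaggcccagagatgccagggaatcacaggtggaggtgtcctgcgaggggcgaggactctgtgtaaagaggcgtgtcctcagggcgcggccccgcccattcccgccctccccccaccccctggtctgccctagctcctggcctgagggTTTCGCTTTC
Ripk3, chr14:55788858-55789057, - strand: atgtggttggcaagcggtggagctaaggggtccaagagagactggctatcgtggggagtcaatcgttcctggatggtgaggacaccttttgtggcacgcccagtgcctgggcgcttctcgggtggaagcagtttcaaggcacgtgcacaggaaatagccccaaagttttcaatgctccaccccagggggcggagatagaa

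The Tnfsf10 window held 2 matches to the shorter core, at -53 to -46 (TTTCACTT, matching on the opposite strand) and at -30 to -23 (AAAAGAAA) from the start, and no full response element. The Tnfrsf1b window held the full element at -10 to -1 and a gamma-activated sequence at -181 to -173. The full element also lay upstream of 1 of the 2 listed starts of Tnfsf13b, at -16 to -7. The Mlkl window, which does not lie wholly outside the span of the annotated gene and is therefore not printed, held no match to any of the 3 motifs. In all, 2 of the 9 genes had a full element, 4 the shorter core and 4 the gamma-activated sequence. A gene was counted if any of its listed starts had a match, whereas the shares given above are of single windows, so the units differ. Among the 6 other pathway genes that fell, described further on, 4 had an entry; Tlr3 held TTTCACTT at -59 to -52, Eif2ak2 held a gamma-activated sequence at -178 to -170, and 0 of the 4 held the full element. A match describes letters in this window and no more.

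Tnfsf10 and Mlkl fell in the knockout cultures, and none of the other 6 measured members passed the test in either direction. Among genes with 1 probe set each, 2.05% of 18193 were lower and 2.85% higher in knockout by the same test (limma, Benjamini-Hochberg adjusted p under 0.05, with all 45037 probe sets in the adjustment), against 2 of 8 members lower and 0 of 8 higher. At an unadjusted p under 0.05 limma put 4 of the 8 lower and 0 higher, where 8.15% of all genes were lower and 15.2% higher at that threshold. Counted by probe set, 3 of the 14 were lower and 0 higher, where 1.7% of all probe sets were lower and 2.06% higher. For 3 of the 8 members every knockout value lay below every wild-type value, an order seen in 11.2% of genes, and for 0 every knockout value lay above, seen in 20.7%. The median log2 difference was -0.10 over the 8 members and 0.01 over all genes. Because the members were chosen with earlier results of these data known, these shares do not test the group against all genes. A permutation of 6 arrays cannot give a two-sided p under 0.1, so the calls rest on the fit across all probe sets.

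**Figure D1:**
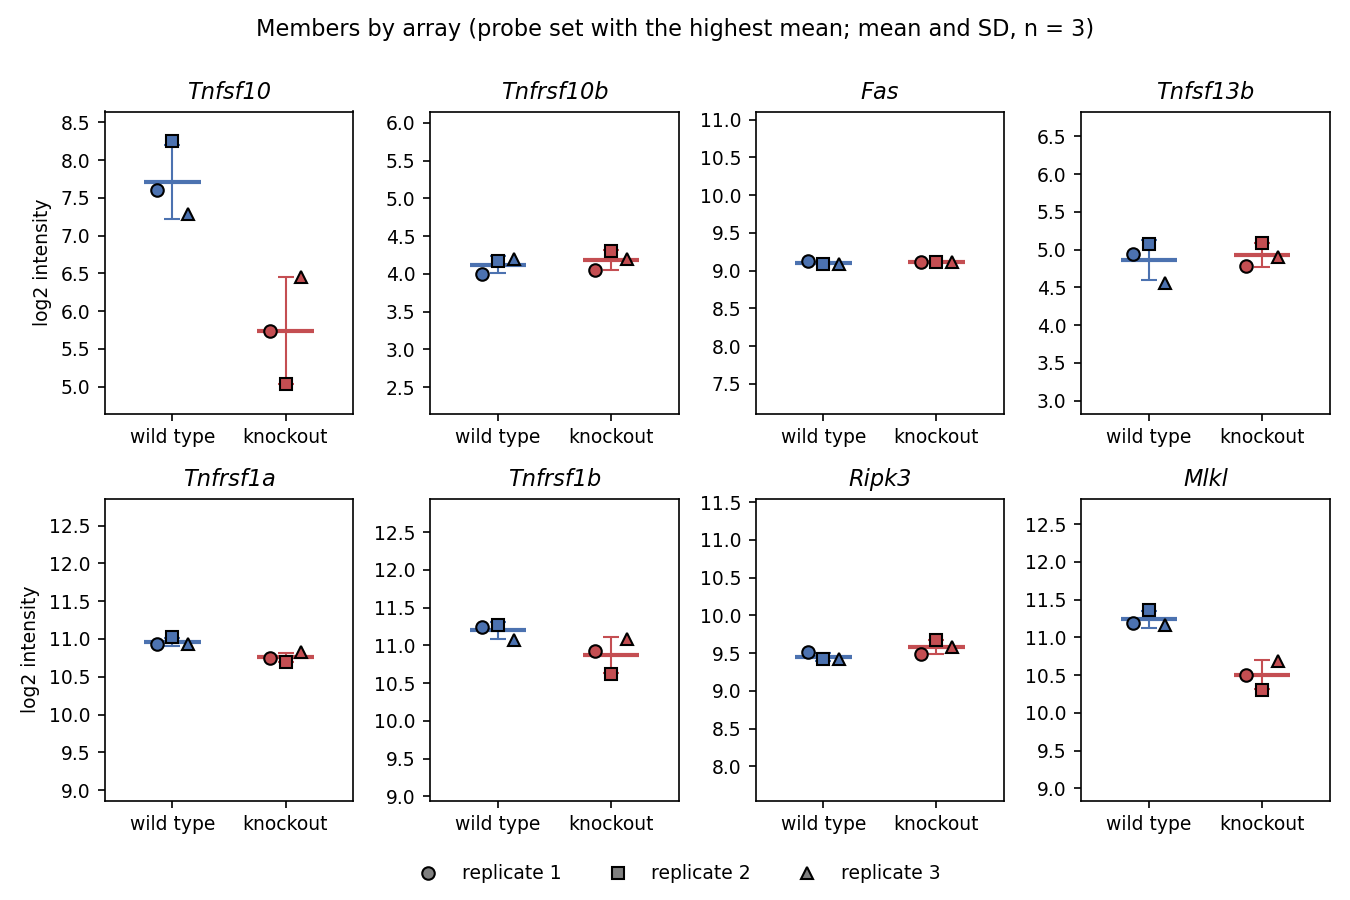
Log2 intensity of the 8 measured members on each array, 1 panel a gene, each spanning 4 log2 units, with the mean (bar) and SD (error bar) of the 3 arrays of a genotype and a symbol for each replicate number. Tnfsf10 and Mlkl show knockout values below all wild-type values by clear gaps, and Fas lies between 9.09 and 9.12 on all 6 arrays.

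Among the ligands, Tnfsf10, which encodes the death ligand TRAIL, had the largest change. Its brightest probe set read 5.73, 5.04 and 6.45 (log2 intensity) on KO1, KO2 and KO3 and 7.60, 8.25 and 7.29 on WT1, WT2 and WT3. Every knockout array lay below every wild-type array, with KO2 the lowest and WT2 the highest of the 6. The means were 5.74 ± 0.71 in knockout and 7.71 ± 0.49 in wild type (SD, n = 3 each), a log2 difference of -1.97 (SE 0.34, 95% interval -2.73 to -1.21), or 3.91-fold (limma adjusted p = 0.0229). A second probe set gave -1.79 (SE 0.25, limma adjusted p = 0.0164). The dimmest of the 3 gave -1.23 (SE 0.31) and did not pass (limma adjusted p = 0.0599), although its knockout values, 4.39 to 5.14, also lay below its wild-type values, 5.56 to 6.73. On that probe set all knockout values were under 5.63, the median of all values on the arrays, and no background level was used here, so its difference may be a lower bound.

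The Tnfsf10 call was lost without KO1 (limma adjusted p = 0.0862), KO2 (0.0539), WT1 (0.0564) or WT2 (0.0858), and was also lost with trend and robust variance settings (0.0936), with the difference between -1.62 and -2.33 over the fits without 1 array.

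Tnfsf13b, which encodes BAFF, the survival factor of B cells, did not pass. Its brightest probe set read 4.78, 5.09 and 4.90 on the knockout arrays and 4.94, 5.08 and 4.56 on the wild-type arrays, so the genotypes overlapped. The log2 difference was 0.06 (95% interval -0.24 to 0.36, limma adjusted p = 0.842). The other 2 probe sets differed by -0.05 and 0.00, and all 3 lay under the median of all values on every array.

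**Figure D2:**
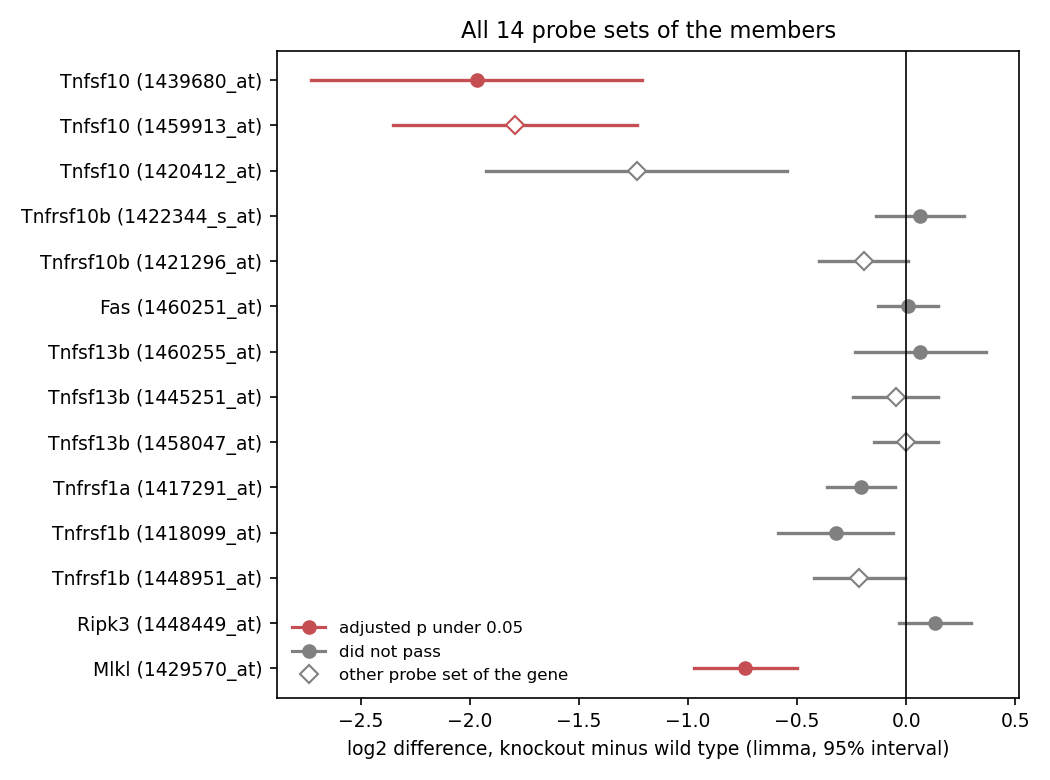
Log2 difference between knockout and wild type with its 95% interval from limma for all 14 probe sets of the members, where circles mark the brightest probe set of a gene, open diamonds the others, and red an adjusted p under 0.05. The 3 red intervals belong to Tnfsf10 and Mlkl, and the third Tnfsf10 probe set lies on the same side at -1.23.

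Among the receptors, none passed the test. Tnfrsf10b encodes DR5, the mouse receptor through which TRAIL signals death. Its brightest probe set read 4.05, 4.31 and 4.20 in knockout and 3.99, 4.17 and 4.20 in wild type, overlapping values under the median of all values. The log2 difference was 0.06 (95% interval -0.14 to 0.26, limma adjusted p = 0.753), and its other probe set gave -0.19 (limma adjusted p = 0.268). The 2 probe sets thus differed in sign, both within intervals that include 0.

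Fas, which encodes the receptor of Fas ligand, had the smallest difference of the 8 members. It read 9.11 on each of the 3 knockout arrays and 9.12, 9.09 and 9.09 on the wild-type arrays. The log2 difference was 0.01 with a 95% interval of -0.13 to 0.15 (limma adjusted p = 0.954), so a change larger than 0.15 in either direction lies outside that interval.

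The TNF receptors lay slightly lower in knockout without passing. Tnfrsf1a, which encodes the death-domain receptor TNFR1, read 10.75, 10.69 and 10.82 in knockout and 10.93, 11.03 and 10.93 in wild type. Its values did not overlap between genotypes, and the log2 difference was -0.21 (SE 0.07, 95% interval -0.36 to -0.05, limma adjusted p = 0.129); with trend and robust variance settings the adjusted p was 0.0358. Tnfrsf1b encodes TNFR2, a receptor without a death domain that is abundant on myeloid cells. It read 10.93, 10.62 and 11.08 in knockout and 11.25, 11.27 and 11.07 in wild type, with KO3 a little above WT3. The log2 difference was -0.32 (SE 0.12, 95% interval -0.59 to -0.06, limma adjusted p = 0.162), and the second probe set gave -0.22 (limma adjusted p = 0.233) without overlap.

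In the necroptosis machinery Mlkl, which encodes the membrane-breaching executioner, fell, and Ripk3 did not pass. Mlkl read 10.50, 10.31 and 10.69 on KO1, KO2 and KO3 and 11.19, 11.37 and 11.16 on WT1, WT2 and WT3. The genotypes were separated by a gap between 10.69 and 11.16, and replicate 2 was again the lowest knockout and the highest wild-type array. The means were 10.50 ± 0.19 and 11.24 ± 0.11 (SD, n = 3 each), a log2 difference of -0.74 (SE 0.10, 95% interval -0.97 to -0.50), or 1.67-fold (limma adjusted p = 0.0175). The call was lost without KO1 (limma adjusted p = 0.0727) or WT2 (0.0650), at differences of -0.74 and -0.67, and held without each of the other 4 arrays in turn.

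Ripk3, the kinase that activates MLKL, read 9.49, 9.68 and 9.58 in knockout and 9.51, 9.42 and 9.42 in wild type. KO1 lay below WT1, so the genotypes overlapped, and the log2 difference of 0.13 (95% interval -0.03 to 0.30) did not pass (limma adjusted p = 0.362). Within an array, the log2 level of Mlkl minus that of Ripk3 was 1.02, 0.63 and 1.11 in knockout and 1.68, 1.95 and 1.75 in wild type, a change of -0.87 (exact permutation test, two-sided p = 0.1, the smallest that 3 against 3 can give). This ratio was lower on every knockout array than on every wild-type array, and since the probes of the 2 genes differ, only its change between arrays has a meaning. Ripk3 stayed within 9.42 to 9.68, a narrower span than the Mlkl gap from 10.69 to 11.16. The separation of the ratio and its p-value therefore followed from the Mlkl values and are no further test.

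Both members that fell ordered the arrays in the way a list of interferon-stimulated genes did. Measured from the midpoint of the genotype means, Tnfsf10 lay at -0.99, -1.69 and -0.27 on KO1, KO2 and KO3 and at 0.87, 1.52 and 0.56 on WT1, WT2 and WT3. Mlkl lay at -0.37, -0.56 and -0.18 and at 0.32, 0.50 and 0.29. The mean of 26 measured interferon-stimulated genes, of which 25 were lower in knockout by limma's adjusted p (median -1.27), lay at -0.70, -1.45 and -0.18 and at 0.68, 1.04 and 0.61. On all 3 measures KO2 was lowest, KO3 was the highest knockout array, WT2 was highest and WT3 the lowest wild-type array. This order was not particular to the members that fell. Tnfrsf1b, which did not pass, had it too, at -0.11, -0.42 and 0.04 in knockout and 0.21, 0.24 and 0.03 in wild type. Tnfrsf1a, which did not pass either, was also lowest on KO2 (-0.17) and highest on WT2 (0.17). The interferon-stimulated list was chosen with earlier results of these data known. With both arrays numbered 2 left out, a choice made after seeing the data, the difference was -1.35 for Tnfsf10 (limma adjusted p = 0.110) and -0.58 for Mlkl (0.0993), and 0 of the 8 members passed.

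**Figure D3:**
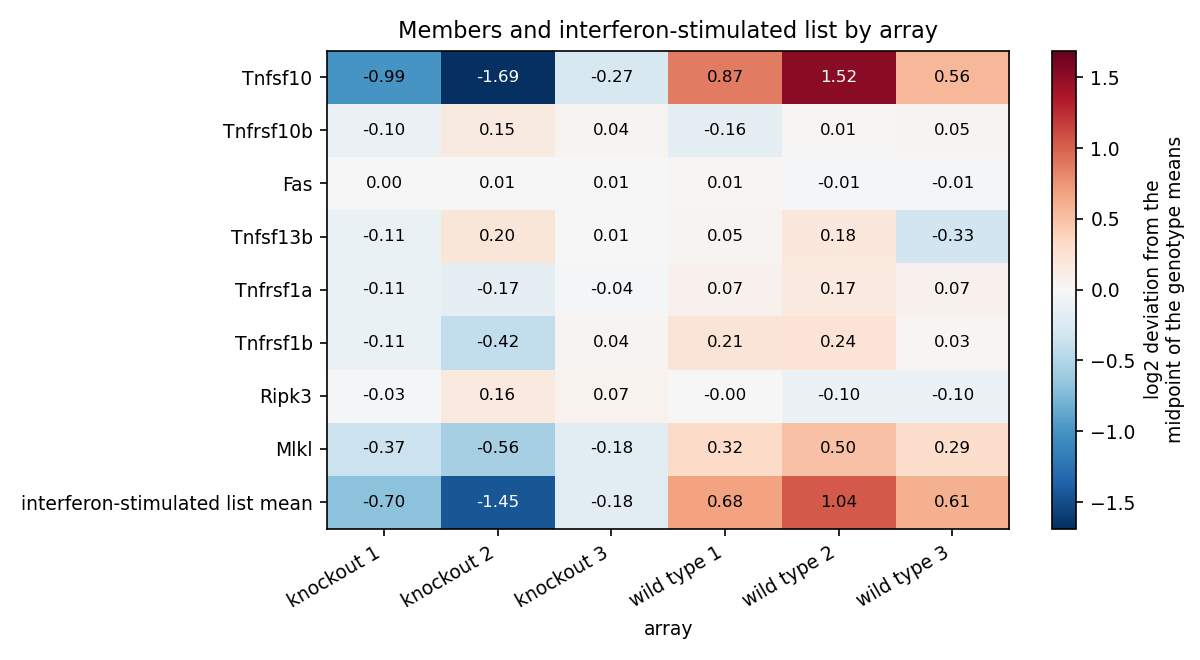
Log2 deviation of the 8 measured members and of the mean of 26 interferon-stimulated genes on each array from the midpoint of the 2 genotype means, blue below and red above, with the value in each cell. Tnfsf10, Mlkl and the interferon-stimulated list share the lowest array, KO2, and the highest, WT2, as do Tnfrsf1a and Tnfrsf1b, which did not pass. Fas reads between -0.01 and 0.01.

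The 5 genes whose 6 deviations from their own mean lay closest to those of Tnfsf10, members apart, were Mx1, Tlr3, Mx2, Cd69 and Ccl12, at root mean square distances of 0.11, 0.13, 0.13, 0.14 and 0.18 log2 units over the 6 arrays. Their log2 differences were -2.13, -1.79, -1.78, -2.21 and -2.11. This measure uses the genotype difference as well as the spread within a genotype.

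The rest of the pathway was read from 5 lists holding 93 measured genes, of which 6 fell, 0 rose and 87 did not pass (limma adjusted p); with trend and robust variance settings, 3 rose and 8 fell. At an unadjusted p under 0.05 limma put 16 of the 93 lower and 13 higher, beside 8.15% and 15.2% of all genes, so the share higher was near that of all genes. The share lower without adjustment was 17.2%, beside the 8.15%. By limma's adjusted p the share lower was 6.45%, beside 2.05% of all genes. The median log2 difference was -0.03, against 0.01 for all genes. Because the lists were also chosen with earlier results of these data known, these shares do not test the pathway against all genes. The number of list genes that fell was 0 without KO1, 1 without KO2 or WT2, 2 without WT1, 3 without WT3 and 6 without KO3. It was 0 without both arrays numbered 2. The counts do not all hold the same genes. Without KO3, Eif2ak2 did not pass (limma adjusted p = 0.0510) and a list gene outside the 6 did. Without WT2, none of the 6 passed (limma adjusted p 0.0546 to 0.127), so the 1 was another list gene.

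**Figure D4:**
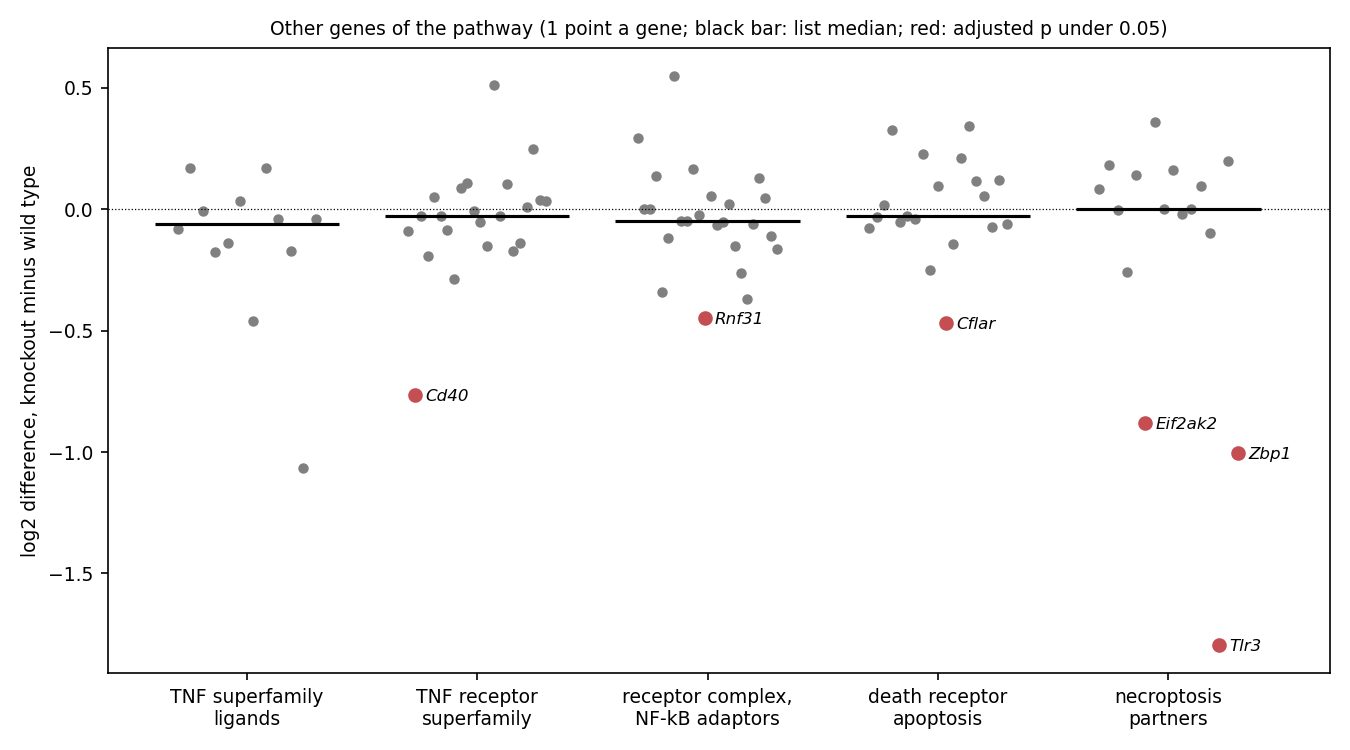
Log2 difference between knockout and wild type for each of 93 measured genes in 5 pathway lists, 1 point a gene, with the list median as a black bar and genes at an adjusted p under 0.05 in red and named. The medians lie between -0.06 and 0.00, and the 6 red points all lie below 0, with 3 of them among the necroptosis partners.

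Of 12 other TNF superfamily ligands, 0 passed in either direction by limma, while without adjustment 3 were lower and 0 higher (limma p under 0.05, a threshold that 8.15% of all genes passed lower and 15.2% higher; median -0.06). Tnf itself, the main inflammatory ligand of TNFR1 and TNFR2, read 10.79, 10.26 and 10.80 in knockout and 11.20, 11.04 and 10.98 in wild type. These values did not overlap, and the log2 difference was -0.46 (SE 0.14, 95% interval -0.77 to -0.14, limma adjusted p = 0.105). Fasl, the ligand of Fas, lay under the median of all values on all arrays, and its probe sets gave -0.18 and 0.03.

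Of 22 other TNF receptor genes, 1 fell and 21 did not pass (median -0.03). Without adjustment limma put 3 lower and 2 higher (p under 0.05, beside 8.15% and 15.2% of all genes). Cd40, a receptor through which T cells activate macrophages, read 8.65, 8.78 and 8.87 in knockout and 9.53, 9.73 and 9.34 in wild type, with no overlap. The log2 difference was -0.76 (SE 0.11, limma adjusted p = 0.0164), and the gene's further probe sets lay at -0.77 and -0.85. The call was lost without KO1 (limma adjusted p = 0.0724) or WT2 (0.0546).

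In the complex that forms at TNF receptors and its NF-kB adaptors, 1 of 24 genes fell and 23 did not pass (median -0.05). Without adjustment limma put 4 lower and 3 higher (p under 0.05, beside 8.15% and 15.2% of all genes). Rnf31, which encodes HOIP, the catalytic subunit of the ligase that adds linear ubiquitin chains to RIPK1 and NEMO, read 7.54, 7.41 and 7.71 in knockout and 7.88, 8.11 and 8.01 in wild type. All knockout values lay below all wild-type values. The log2 difference was -0.45 (SE 0.09, limma adjusted p = 0.0382), and of the 6 fits without 1 array only that without KO3 kept the call (limma adjusted p up to 0.127 in the others).

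Among 19 genes of death receptor apoptosis, 1 fell and 18 did not pass (median -0.03). Without adjustment limma put 2 lower and 4 higher (p under 0.05, beside 8.15% and 15.2% of all genes). Cflar encodes c-FLIP, which pairs with caspase-8 and restrains it. It read 10.30, 10.21 and 10.43 in knockout and 10.81, 10.89 and 10.64 in wild type, a log2 difference of -0.47 (SE 0.09, limma adjusted p = 0.0280) without overlap. Of its other 4 probe sets, 2 passed as well (-0.59 and -0.56) and 2 did not (-0.30 and -0.14). The Cflar call was lost without KO1, KO2, WT1 or WT2 (limma adjusted p between 0.0750 and 0.101). Casp8, the initiator caspase, read 10.78, 10.76 and 10.87 in knockout and 10.98, 11.17 and 11.01 in wild type. Its log2 difference of -0.25 (SE 0.07, 95% interval -0.42 to -0.08) did not pass (limma adjusted p = 0.1001), though the values did not overlap; with trend and robust variance settings the limma adjusted p was 0.0264. The within-array log2 level of Cflar minus that of Casp8 changed by -0.22 (exact permutation test, two-sided p = 0.1, the smallest possible here). Fadd, the adaptor that joins death receptors to caspase-8, differed by 0.05 (95% interval -0.13 to 0.24, limma adjusted p = 0.770).

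The necroptosis partners held 3 of the 6 falls, with 13 of 16 genes not passing and a list median of 0.00. Without adjustment limma put 4 lower and 4 higher (p under 0.05, beside 8.15% and 15.2% of all genes). Tlr3, the endosomal receptor of double-stranded RNA, which reaches RIPK3 through the adaptor TRIF, read 7.75, 7.04 and 8.46 in knockout and 9.32, 10.002 and 9.31 in wild type. The genotypes were far apart, with a log2 difference of -1.79 (SE 0.32), or 3.47-fold (limma adjusted p = 0.0244), and the second probe set gave -1.64. Zbp1, the nucleic acid sensor that binds RIPK3 directly, read 9.10, 8.61 and 9.53 in knockout and 9.97, 10.27 and 10.01 in wild type. Its log2 difference was -1.003 (SE 0.20, limma adjusted p = 0.0310), without overlap, and -1.18 on its other probe set. Eif2ak2, which encodes the double-stranded RNA kinase PKR, read 9.62, 9.07 and 9.50 in knockout and 9.96, 10.58 and 10.29 in wild type, a log2 difference of -0.88 (SE 0.17, limma adjusted p = 0.0310). Its other probe sets gave -0.68 and -0.38 and did not pass. All 3 lost the call without KO1, KO2 or WT2, with limma adjusted p between 0.0516 and 0.119; Tlr3 and Zbp1 also lost it without WT1, Eif2ak2 and Zbp1 without WT3, and Eif2ak2 without KO3. With trend and robust variance settings the 3 had limma adjusted p of 0.110, 0.0933 and 0.0751.

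The arrays and cultures were checked as follows. Fabp5 read 8.13 to 8.39 in knockout and 14.41 to 14.47 in wild type, as the labels state. Array medians lay between 5.60 and 5.64. Of 11 measured macrophage markers, all read above the median of all values on at least 1 array; their mean level was 11.35 to 11.53 in knockout and 11.60 to 11.66 in wild type, and 2 (Fcgr1 and Mertk) were lower. Dendritic cell markers were higher in knockout (3 of 14 passed; mean level 8.50 to 8.92 against 8.17 to 8.39), with Xcr1, Itgae and Cd209a under the median of all values on every array. Neutrophil markers lay lower without passing (0 of 13, although without adjustment limma put 9 lower and 1 higher; 8.49 to 9.09 against 9.13 to 9.37), and fibroblast markers were lower (3 of 9 passed; 4.98 to 5.10 against 5.46 to 5.58, with 5 of 9 under the median of all values on every array, Col3a1 of the 3 that passed among them). Without adjustment (limma p under 0.05), 0 dendritic cell markers were lower and 10 higher, and 7 fibroblast markers were lower and 0 higher. Of the macrophage markers 2 were lower and 1 higher. Over all genes 8.15% were lower and 15.2% higher at that threshold, and 2.05% and 2.85% by adjusted p. Like Tnfsf10 and Mlkl, the neutrophil list was lowest on KO2 (-0.54 from its midpoint), where the dendritic list was highest (0.47). Within wild type the neutrophil list ran the other way from Tnfsf10 and Mlkl, with WT2 lowest (0.10) and WT3 highest (0.34). Of the B cell markers 5 of 7 lay under the median on every array, of the T and NK cell markers 6 of 9 and of the epithelial markers 4 of 8, and 0 of these passed. Of the mast cell, basophil and eosinophil markers 5 of 9 lay under it (mean level 5.19 to 5.36 in knockout, 5.18 to 5.21 in wild type), and 1 of 9, Siglecf, was higher in knockout (0.95, SE 0.14, limma adjusted p = 0.0177), with no overlap and KO2 the highest array. The part of other cell types in the falls of Tnfsf10, Mlkl and the pathway genes was not tested.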

How the data were processed

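The deposited table holds log2 values of 45101 probe sets on 6 arrays, normalized by the authors; the log2 scale was read from the values. Both RMA and GCRMA 2.30.0 stand in the submitters' processing notes, beside affy 1.36.1 and limma 3.14.4. They treat dim signals differently, and which one gave these values is not stated there. A shift shared by most genes would be lost to normalization between arrays.

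The 64 control probe sets were left out, and the other 45037 were tested without a filter on low values, by limma 3.58.1 in R 4.3.3 (genotype as the only term, eBayes, Benjamini-Hochberg). Symbols came from the platform annotation, updated by gene identifier in RefSeq. The probe set with the highest mean stood for its gene. Those assigned to several genes (932) or to none (9160) carry no name here. Members and lists were chosen with earlier results of these data known. Named were all members, Fabp5, list genes that passed, Tnf, Fasl, Casp8, Cflar, Fadd, Zbp1 and the genes most alike to Tnfsf10; the names of markers that passed or were dim, and those in the closing section, were chosen after their values were seen. On simulated arrays with 45037 probe sets, limma found 40% of log2 changes of 0.5, 91% at a size of 1 and 98% at 2, with 8 false calls. The simulated noise was drawn separately for each probe set, without deviations that genes share on an array. The simulation changed 50, 100 and 50 probe sets at these sizes, while 1691 were called in the data. With fewer changes the adjustment was stricter in the simulation. These rates therefore need not hold for the real arrays. No array duplicated another. The labels name no batch. Figures used matplotlib 3.10.9.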

Additional observations from a re-analysis of the deposited data

How the results depend on the processing

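The alternatives were quantile normalization, median centring, above-median probe sets only, a floor at the 20th percentile (4.07), trend and robust variance settings, array weights, the replicate block, no _s_at or _x_at probe sets, averaging a gene's probe sets, omitting each array, a minimum log2 difference of 1 and an adjusted p under 0.1, with both arrays numbered 2 left out added after seeing the data. Averaging gives no count over all probe sets. Tnfsf10 and Mlkl kept their sign in all 17 settings that refit or recount each of them. Their knockout values all lay below their wild-type values, so omitting arrays or changing the variance or threshold settings could not have turned the sign. The number of members lower, 2, was 0 to 2 without 1 array, 0 with the floor, the replicate block or both arrays numbered 2 left out, and 1 (Tnfsf10) at a minimum difference of 1. With trend and robust settings it was 2, but these were Mlkl and Tnfrsf1a. Members higher were 0 throughout. Pathway genes lower, 6, were 0 to 6 without 1 array, 0 with the floor, the replicate block or both arrays numbered 2 left out, and 2 at a minimum difference of 1. These counts do not always hold the same genes. Pathway genes higher, 0, were 0 to 1 without 1 array, 1 with median centring, 2 with above-median probe sets, and 3 with trend and robust settings or an adjusted p under 0.1. Probe sets called, 1691, were 40 to 1360 without 1 array, 3 with both arrays numbered 2 left out, 71 with the floor, 92 with the replicate block, 171 at a minimum difference of 1, 2692 with above-median probe sets, 3126 with trend and robust settings and 3775 at an adjusted p under 0.1. Deviations of same-numbered arrays correlated at -0.06, -0.04 and -0.13, no array correlated best with its own number, and the replicate numbers were not taken as a pairing. The causes of these moves were not tested. Dim probe sets (Tnfrsf10b, Tnfsf13b, Fasl) limit what a difference near 0 can show.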

Other observations

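Several pathway genes lay on the other side of 0 from Tnfsf10 and Mlkl without passing; they are named here after their values were seen. Map3k14, which encodes the kinase NIK of the noncanonical NF-kB pathway that BAFF and CD40 receptors use, read 7.69, 7.98 and 7.70 in knockout and 7.25, 6.97 and 7.51 in wild type, a log2 difference of 0.55 (SE 0.14, limma adjusted p = 0.0594). Every knockout value lay above every wild-type value. Birc2, which encodes the ubiquitin ligase cIAP1 of the TNF receptor complex, differed by 0.29 (SE 0.10, limma adjusted p = 0.140), and the survival gene Bcl2 by 0.33 (SE 0.09, limma adjusted p = 0.0806). Tnfrsf18, the costimulatory receptor GITR, differed by 0.51 (SE 0.16, limma adjusted p = 0.111). On each of these 4 genes the genotypes did not overlap, but this order is common: knockout lay wholly above wild type in 18.3% of the 93 pathway genes and in 20.7% of all genes, and wholly below in 19.4% and 11.2%. The 4 genes are a selection. Others wholly above include Fkbp4 of the necroptosis list (0.36, limma adjusted p = 0.0668) and 2 genes of the apoptosis list, Dffb (0.34, 0.140) and Dffa (0.21, 0.112).

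Tnfsf8, which encodes CD30 ligand, had the widest difference among the TNF superfamily ligands outside the members. It read 7.10, 6.94 and 7.07 in knockout and 7.68, 8.87 and 7.76 in wild type, a log2 difference of -1.06 (SE 0.26) that did not pass (limma adjusted p = 0.0604). As with Tnfsf10 and Mlkl, KO2 was the lowest and WT2 the highest array.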
